A study of Mus musculus with 12 samples.

Results

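The regions described here are stretches of the mouse genome where binding was listed for the WC mutant and for no other protein of the study. The sites of 5 deposited lists were pooled, sites sharing at least 1 base were merged, and the merged regions holding WC sites only were kept. There are 3795 such WC-alone regions among 60136 merged regions. Each consists of 1 WC site, so region and site are the same thing below. The regions were thus chosen by the presence and absence of sites in the same 5 lists that are described below, and what the lists show about them is a description with no test.

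The study mapped binding by chromatin immunoprecipitation and sequencing (ChIP-seq) in P19 cells, a mouse embryonal carcinoma line, after viral transduction. The groups were MD(ND2bHLH)WC mutant (WC), MD(ND2bHLH)WCS mutant (WCS), MD(ND2bHLH) chimera (the chimera, MyoD carrying the bHLH domain of NeuroD2), NeuroD2, MyoD and untransduced cells. WC and WCS are mutated forms of the chimera. The labels leave the letters W, C and S unexplained. All groups, the untransduced one included, have the same protocol text: infection in medium with 8 µg/ml polybrene, fresh medium after 24 h and a neuronal medium after 48 h. Each group has 2 libraries made with different antibodies. MyoD antibodies 6196 and 6975 were used for WC, WCS, the chimera and MyoD, NeuroD2 antibodies 1165 and 1240 for NeuroD2, and antibodies 1240 and 6975 for untransduced cells. Each transduced group has 1 list. No list from untransduced cells was used here. Neither a spread between replicates nor a background level can therefore stand beside any value. Read depth is unknown.

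MyoD and NeuroD2 are basic helix-loop-helix (bHLH) transcription factors. The helix-loop-helix part pairs with an E protein, and the basic part of the pair contacts a short palindromic DNA element, the E-box. MyoD directs skeletal muscle differentiation and NeuroD2 neuronal differentiation, and each recognises its own subset of E-boxes together with some that both bind. Residues of MyoD outside the bHLH domain also matter for where it binds, among them those through which it contacts the homeodomain proteins Pbx and Meis.

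The WC list holds 27045 sites, and the 3795 WC-alone sites are 14.0% of them (95% interval 13.6 to 14.5%). All 95% intervals of shares are exact Clopper-Pearson intervals, and those of medians are order-statistic intervals. Both treat sites as independent and cover counting error only. Beside the 14.0%, the share of sites in no other list was 8.14% for WCS (1829 of 22462 sites), 13.7% for the chimera (1972 of 14375), 33.1% for NeuroD2 (10412 of 31458) and 53.6% for MyoD (13371 of 24935). Over all lists, 52.2% of merged regions were held by 1 list. WC and the chimera thus had nearly the same share of sites to themselves, WCS had less, and both native proteins had more. These shares come from lists of unlike make-up. The MyoD and chimera lists hold no site on chromosome X, and their widest sites have 1947 and 3746 bp. The widest sites of WC, WCS and NeuroD2 have 18276, 16044 and 16023 bp. Median width was 431 bp for the chimera list and 329 to 358 bp for the other lists. What part this has in the differences between lists, here and below, was not tested.

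The list lengths differ, and a longer list has more sites that a shorter one can lack. When the WC list was cut by value to the 22462 sites of WCS, 2274 regions were WC-alone, or 10.1% of the cut list. When every list was cut to the 14375 sites of the chimera, 1521 were, or 10.6% of the cut WC list. The chimera's own share was not computed at that cut. Both cuts drop the WC sites of lowest value, which are most often WC-alone, as given below. Cutting every list also removes sites of the other lists, so WC sites shared in the full lists can become WC-alone. Against the full lists, 744 of the 14526 WC sites with a value of 10 or more were WC-alone, or 5.12%. The cuts therefore do not isolate list length. What part the list lengths have in the number of WC-alone regions was not tested.

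WC-alone sites had low values. The value of a site is the authors' own, on a scale that no header or label names. It starts just above 5 in every list and is used here to order and group the sites of a list, with no meaning given to its size. The median was 6.68 in WC-alone sites (quartiles 5.69 and 8.97) and 11.8 in the other 23250 WC sites (quartiles 7.58 and 22.8). Values below 6 were given to 33.1% of WC-alone sites (1255 sites) and 10.1% of the other WC sites. Values of 10 or more were given to 19.6% of WC-alone sites (744 sites) and 59.3% of the other WC sites. None of the WC-alone sites had an infinite value, and 8 of the other WC sites did. Low values were not particular to WC. Sites in no other list had a lower median than their whole list in WCS (6.045 against 10.0) and the chimera (7.17 against 9.49). The same held for NeuroD2 (7.48 against 10.5) and MyoD (8.79 against 10.7).

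**Figure D1:**
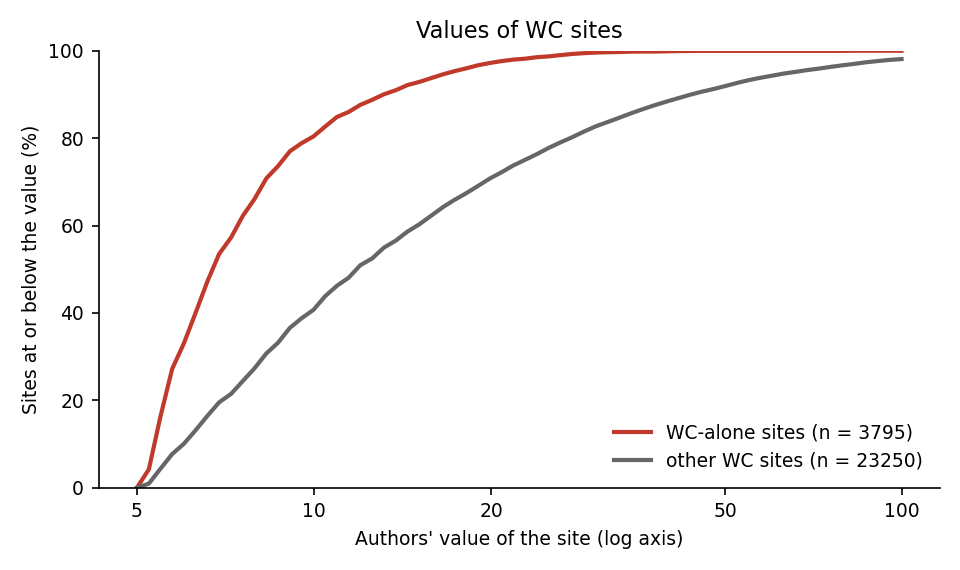
Cumulative share of WC sites (vertical axis, percent) at or below each value of the authors (horizontal axis, log scale), for the 3795 WC-alone sites in red and the 23250 other WC sites in grey. The medians are 6.68 for WC-alone sites and 11.8 for the others, and the red curve is close to its top at a value of 20, where the grey curve has not levelled.

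The WC-alone share was lower in each decile of the WC list than in the one below it. In decile 1, the sites with the lowest values, 36.3% were WC-alone (981 of 2705). In decile 5 the share was 12.4%, in decile 9 it was 1.70%, and in decile 10, the sites with the highest values, 0.185% (5 of 2704 sites). Nearly all sites of decile 10 were therefore held by at least 1 other list. In decile 10 of the other lists the share was 0% for WCS (0 of 2246 sites, up to 0.164%), 1.25% for the chimera, 5.28% for NeuroD2 and 16.3% for MyoD. The 95% interval for WC in decile 10 was 0.0601 to 0.431%, below the chimera's 0.744 to 1.97%. In decile 1 the order of those lists was the opposite, with 36.3% for WC and 26.0% for the chimera. The differences were not tested.

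**Figure D2:**
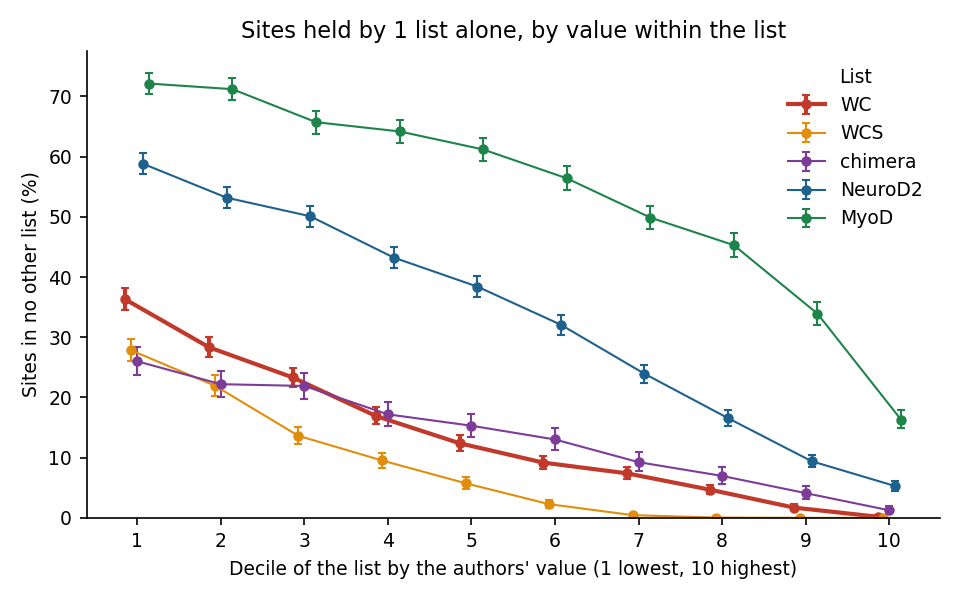
Share of sites in no other list (vertical axis, percent) in each decile of a list ranked by the authors' value (horizontal axis, 1 lowest and 10 highest), for the 5 lists, with 95% Clopper-Pearson intervals as bars. The WC line runs from 36.3% in decile 1 to 0.185% in decile 10, crosses the chimera line and lies above the WCS line.

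WC sites of high value that no other list holds were few. Of the 6901 WC sites with a value of 20 or more, 106 were WC-alone, or 1.54% (1.26 to 1.85%), while WCS held 92.9% of those 6901, NeuroD2 90.4%, the chimera 62.2% and MyoD 38.6%. At a value of 30 or more, 16 of 4070 were WC-alone, and at 40 or more, 5 of 2695. In the WCS-alone class the highest value was 19.8, and 0 of its 1829 sites reached 20. The chimera-alone class had 65 of 1972 sites at 20 or more, with a highest value of 91.6. Since scales may differ between lists, these counts are set side by side and no comparison is drawn from them.

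Below the WC-alone site of highest value, the next of its class has 44.9 and ranks 2224 in the WC list. The site of highest value occupies 412 bp of chromosome 10 from 87704660 to 87705071 (mm9). Its value is 80.2, which ranks 751 in the WC list. Of the 754 WC sites with a value at least as high, it is the one that no other list holds. The nearest site of another list is 18758 bp away, a WCS site with a value of 10.3, and a NeuroD2 site and another WC site lie at nearly the same distance, 18764 and 18720 bp. The nearest chimera site is 78700 bp away and the nearest MyoD site 182908 bp.

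The site of next highest value, 44.9, is on chromosome 11 from 55805843 to 55806388. The third, with 42.5, is on chromosome 9 from 67543743 to 67544140, and the fourth, with 41.2, on chromosome X from 131343481 to 131343884. These 3 sites are 398 to 546 bp wide. Over all WC-alone regions the gap to the nearest other list has quartiles of 2581.5 and 24069.5 bp. These 3 sites have gaps of 17447, 18608 and 51081 bp. Near the first of them, sites of NeuroD2, the chimera and WCS lie together 17447 to 17473 bp away. Near the site on chromosome 9, sites of MyoD, NeuroD2 and WCS lie 18608 to 18749 bp away, and that MyoD site has a value of 85.2. The site on chromosome X has its nearest NeuroD2 site at 51081 bp. MyoD and the chimera have no listed site on that chromosome.

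Chromosome 11 held another 2 of the 10 WC-alone sites with the highest values that are named here. They lie from 9191033 to 9191555, with a value of 40.4, and from 71377004 to 71377444, with 39.6. For both the nearest other list was NeuroD2, at 21522 and 15153 bp. Chromosome 10 held 2 more, from 107583538 to 107583917, with a value of 34.9, and from 7915597 to 7915946, with 34.1. The second has another WC site only 180 bp away, with a value of 5.04 that is near the bottom of the list. The site of value 34.4 on chromosome 16 from 77074612 to 77075022 is the most isolated of the 10, with a gap of 256334 bp to the nearest site of any other list. The site on chromosome 8 from 91979652 to 91980061, with 33.6, is the least isolated, with a MyoD site of value 5.83 at 1345 bp.

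WC-alone sites were narrow. Their median width was 277 bp (274 to 279) and the other WC sites' was 362 bp (361 to 364), and the widest WC-alone site had 798 bp while 241 of the other WC sites exceeded 1 kb. This was not particular to WC, whose whole list had a median of 349 bp. Sites in no other list were also narrower than their whole list in WCS (median 233 against 329 bp) and the chimera (379 against 431 bp). The same held for NeuroD2 (292 against 341 bp) and MyoD (337 against 358 bp). Width rises with value within the list, and a wide site has more room to overlap another, so width is tied to how the regions were chosen. Within bands of similar value the gap in width was much smaller. Among sites with a value from 5 to below 6, the median width was 230 bp in WC-alone sites and 240 bp in the others. Among those from 20 to below 40, it was 400 and 440 bp. WC-alone sites were narrower in each of the 7 bands, by 10 to 40 bp, and in none of them did the 95% intervals of both medians meet. The 3 widest WC-alone sites lie on chromosome 14 from 52212429 to 52213226, where the value is 7.36, and on chromosome 6 from 97051668 to 97052414, with 14.4, and from 50759341 to 50760085, with 12.0. None of these 3 is among the 10 of highest value. In all, WC-alone sites cover 1.10 Mb.

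Most WC-alone regions lay more than 1 kb from any site of another list. The gap from a WC-alone region to the nearest site of any other list had a median of 8387 bp (7944 to 8936), with quartiles of 2581.5 and 24069.5 bp. A site of another list lay within 100 bp of 63 regions (1.66%), within 1 kb of 508 (13.4%), within 10 kb of 2070 (54.5%) and within 100 kb of 3614 (95.2%). The corresponding shares within 1 kb were 16.7% for WCS-alone (305 of 1829), 15.7% for chimera-alone (310 of 1972), 14.0% for NeuroD2-alone and 12.0% for MyoD-alone regions. The 95% interval of the WC-alone share, 12.3 to 14.5%, overlaps that of chimera-alone regions, 14.1 to 17.4%, and lies just below that of WCS-alone regions, 15.0 to 18.5%. These differences were not tested.

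**Figure D3:**
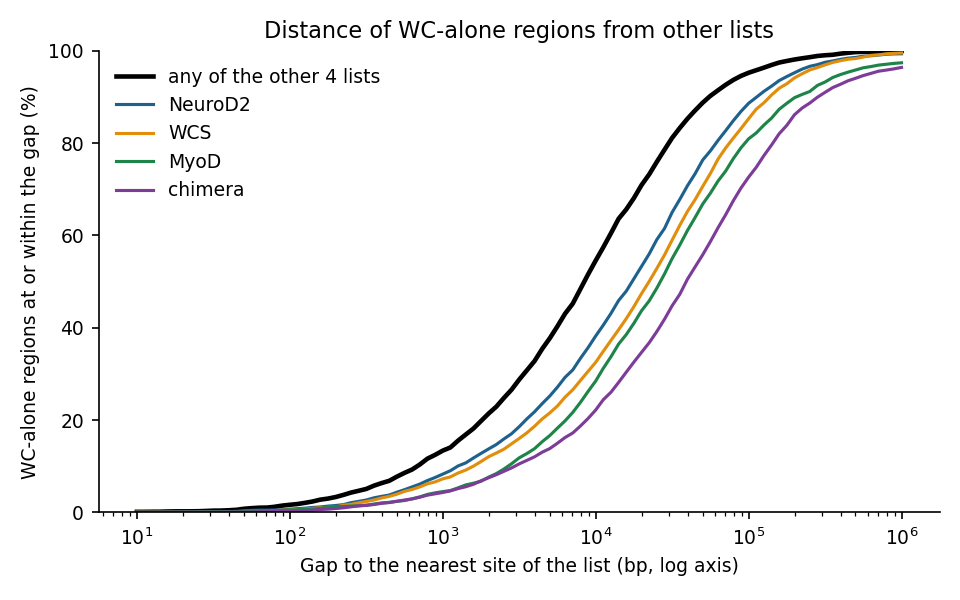
Cumulative share of the 3795 WC-alone regions (vertical axis, percent) with a site of another list at or within each gap in base pairs (horizontal axis, log scale). The black line is for any of the other 4 lists and reaches 13.4% at 1 kb and 54.5% at 10 kb, and the median gap is smallest for NeuroD2 and largest for the chimera, whose curve meets that of MyoD below a few kilobases.

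NeuroD2 was the list most often nearest, for 1444 WC-alone regions or 38.1% (36.5 to 39.6%). MyoD was nearest for 1023 (27.0%), WCS for 803 (21.2%) and the chimera for 525 (13.8%). The order is that of the list lengths, 31458, 24935, 22462 and 14375 sites. Within 1 kb the order differed for the middle pair, with WCS near 276 regions and MyoD near 171, although the MyoD list is longer. NeuroD2 was within 1 kb of 315 and the chimera of 164. Of the 508 regions with any list within 1 kb, 241 had 1 list there and 42 had all 4.

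The median value of WC-alone sites differed little with their distance from other lists. The median was 6.68 in regions with another list within 1 kb, 6.68 between 1 and 10 kb, 6.68 between 10 and 100 kb, and 6.97 in the 181 regions beyond 100 kb. When WC-alone sites were divided into 5 equal groups by value, the share with another list within 1 kb was 14.5, 13.7, 12.4, 15.2 and 11.2% from the lowest to the highest group. The median gap in these groups ranged from 7747 to 9852 bp.

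WC-alone regions lay farther from the nearest merged region of any kind than other regions with a WC site did. The median gap to the nearest merged region was 7472 bp for WC-alone regions (7079 to 7974) and 4682 bp for the other 22964 regions with a WC site (4554 to 4812). It was 7510 bp for WCS-alone and 7060.5 bp for chimera-alone regions, so a spacing of this size was common to these 3 classes, and 5694.5 bp for NeuroD2-alone and 5862 bp for MyoD-alone regions. The difference from other WC sites was also seen at similar values. Among sites with a value from 5 to below 6, the median gap was 6984 bp for WC-alone sites and 5310 bp for other WC sites. Among those from 20 to below 40, it was 10190 bp for WC-alone sites (7357 to 15647) and 4138 bp for the others (3833 to 4477). In all 7 bands the gap was larger for WC-alone sites and the 95% intervals did not meet. A region with many sites around it has more chances to be overlapped, so this spacing is not independent of the choice of regions.

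**Figure D4:**
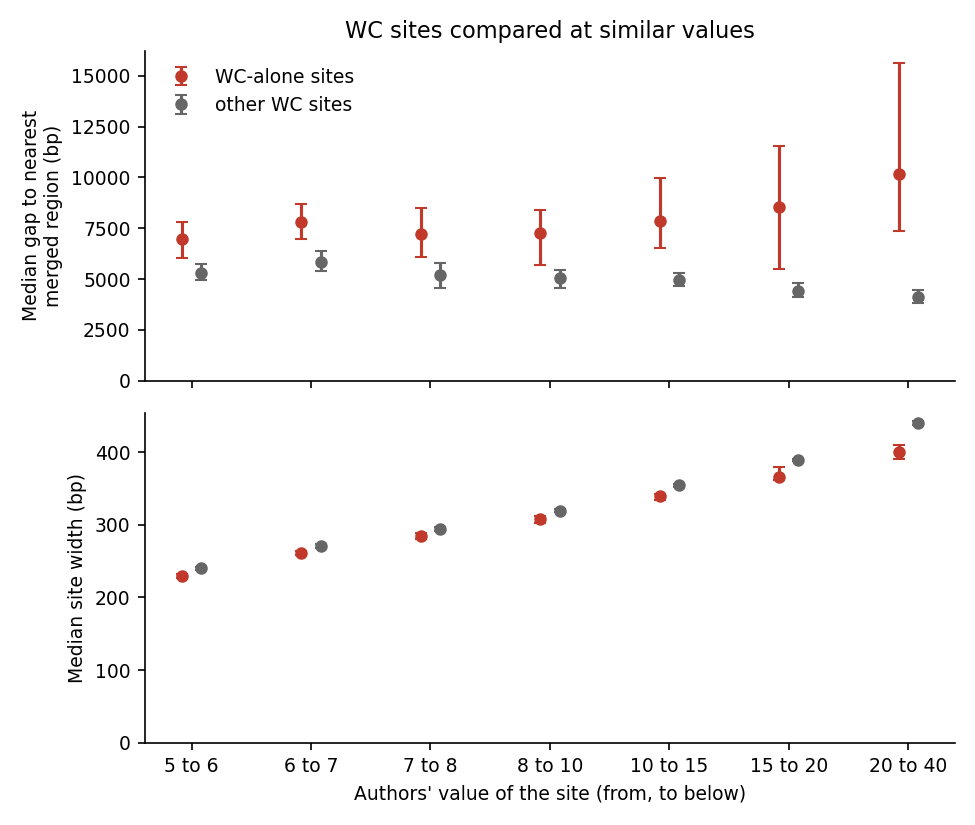
WC sites in 7 bands of the authors' value (horizontal axis), with WC-alone sites in red and other WC sites in grey. The upper panel gives the median gap to the nearest merged region and the lower panel the median site width, both in base pairs with 95% order-statistic intervals as bars. WC-alone sites have the larger gap and the smaller width in every band, for example 10190 against 4138 bp and 400 against 440 bp in the band from 20 to below 40.

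Some WC-alone sites lay at the side of a WC site that other lists share. This was so for 287 of them (7.56%), counting shared WC sites within 1 kb. Lying beside a WC site was not particular to WC-alone sites. Any other WC site lay within 1 kb of 9.20% of WC-alone sites and of 14.2% of the other WC sites. The 287 WC-alone sites are described next. These WC-alone sites had a median value of 6.97, and the shared sites beside them had a median of 14.0 (12.1 to 16.0). In 59 of the 287 pairs the WC-alone site had a value at least as high as its neighbour. The WC-alone site nearest to any site of another list, of value 9.08, is such a case and lies on chromosome 4 from 141932535 to 141932845. It touches a WCS site of value 95.1 without sharing a base and lies 44 bp from a WC site of value 95.4. A second site on chromosome 4 with no gap to another list, from 125622504 to 125622824, has the value 5.60, touches a chimera site of value 57.0 and lies 120 bp from a WC site of value 137.2.

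These regions stand just inside the boundary between WC-alone and shared. The other 3 with the smallest gaps lie on chromosome 19 from 4878436 to 4878679 (3 bp from a MyoD site), chromosome 11 from 35823050 to 35823407 (7 bp from a WCS site) and chromosome 10 from 126520403 to 126520637 (9 bp from a MyoD site). Their values are 8.43, 8.62 and 5.91. Just outside stand WC sites that share only a few bases with another list. The smallest overlap was 3 bases with a NeuroD2 site, at a WC site of value 5.36 on chromosome 15 from 31557667 to 31557875. Next came 5 bases with a NeuroD2 site on chromosome 2 from 26169835 to 26170084 (value 5.90) and 10 bases with a MyoD site on chromosome 6 from 127977802 to 127978120 (value 5.90). Then came 13 bases on chromosome 2 from 72019178 to 72019512 (value 6.56), where the chimera and MyoD have sites, and 18 bases with a WCS site on chromosome 6 from 96030846 to 96031362 (value 6.23). In all, 63 WC-alone sites had a gap below 100 bp, with a median value of 7.02, and 66 other WC sites shared at most 100 bases with any other list, with a median of 6.01. Few sites thus lay this close to the boundary, and their values on both sides of it were low. Another definition of sharing moves more sites, since a rule of centres within 100 bases gave 4494 WC-alone regions in place of 3795.

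Among WC sites held by 1 other list, those shared with a native protein only were most like the WC-alone sites in value. The median value was 6.68 in WC-alone sites, 6.84 in the 402 sites shared with MyoD alone and 7.24 in the 2363 shared with NeuroD2 alone. It was 8.05 in the 2154 shared with WCS alone and 9.45 in the 523 shared with the chimera alone. Sites of 20 or more made up 2.79% of WC-alone sites (2.29 to 3.37%), 1.74% of those shared with MyoD alone, 3.22% of those shared with NeuroD2 alone, 6.04% of those shared with WCS alone and 18.2% of those shared with the chimera alone (15.0 to 21.7%). Sites in all 5 lists had a median of 24.4. These are values of the WC list throughout, so they are on 1 scale.

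WC-alone regions were found on every chromosome that the WC list covers. Chromosome 2 held the most, 327, and chromosome X the fewest, 73, with chromosome 19 the lowest autosome at 88. As a share of the WC sites of a chromosome, they ranged from 11.3% on chromosome 8 (9.73 to 13.0%) to 18.1% on chromosome X (14.5 to 22.2%). Chromosome 14 had the highest share of the autosomes, 17.8% (15.4 to 20.3%), while all autosomes together had 13.97% (13.6 to 14.4%). The X chromosome is a special case, because the MyoD and chimera lists hold no site there. Set against the WCS and NeuroD2 lists alone, 18.1% of WC sites on X were in no other list and 20.1% of those on autosomes (19.6 to 20.5%). The X share was thus the same in both comparisons, and only the autosomal share changed with the set of lists used. It lay below the X interval of 14.5 to 22.2% in the first comparison and within it in the second.

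**Figure D5:**
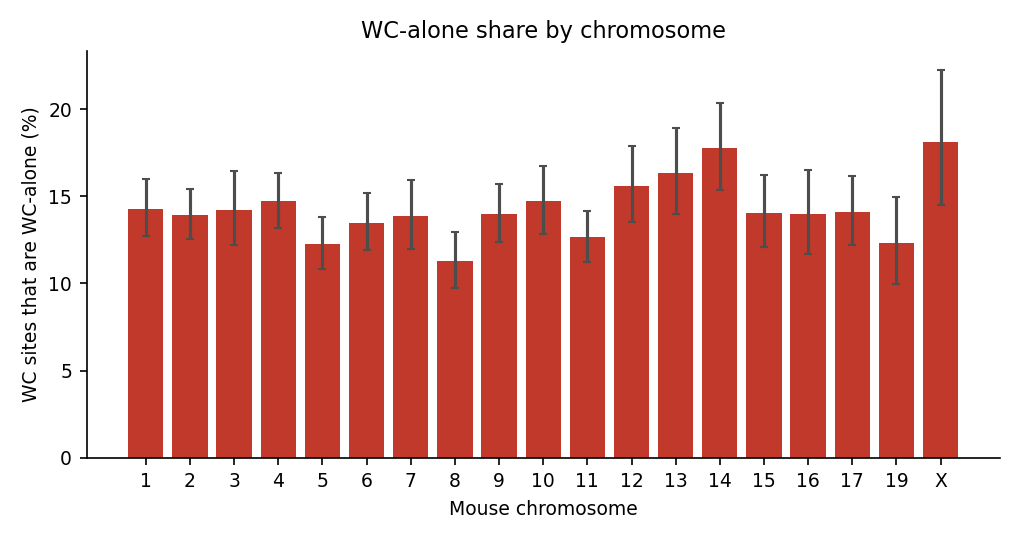
Share of WC sites that are WC-alone (vertical axis, percent) on each mouse chromosome (horizontal axis, chromosome 18 not drawn), with 95% Clopper-Pearson intervals as bars. The shares run from 11.3% on chromosome 8 to 18.1% on chromosome X, and the intervals of all drawn chromosomes except 8, 14 and X overlap that of all autosomes, 13.6 to 14.4%.

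WC-alone regions were mostly scattered singly. The median gap from one to the next nearest was 130077 bp, and 326 of them (8.59%, 7.72 to 9.53%) had another within 10 kb. The share within 10 kb of their own kind was 7.87% for WCS-alone regions, 5.22% for chimera-alone regions (4.28 to 6.30%), 13.3% for regions of WC and WCS alone (11.9 to 14.8%), 26.7% for NeuroD2-alone regions and 29.9% for MyoD-alone regions. The number of regions in a class bears on such shares, and the NeuroD2-alone and MyoD-alone classes hold 10412 and 13371 regions, far more than the 3795 of WC alone. In windows of 100 kb, 2787 held 1 WC-alone region, 366 held 2 and 85 held 3 or more. The windows with 10 or more sites of any list held 5.09% of WC-alone sites (4.41 to 5.83%) and 10.1% of the other WC sites (9.74 to 10.5%). A site in such a window has more chances to be overlapped, so this contrast is not independent of the choice of regions. At the other extreme, 450 WC-alone regions (11.9%) lay in windows of 100 kb with no site of another list.

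The window with the most WC-alone regions starts at 145100001 on chromosome 4, with 6. Their values run from 5.30 to 11.6. That window is crowded in several lists, with 21 WC, 20 WCS, 5 chimera, 42 NeuroD2 and 3 MyoD sites. A further 3 windows tied at 5 WC-alone regions. The one from 6100001 on chromosome 14 had 7 WC, 2 WCS, 0 chimera, 0 NeuroD2 and 1 MyoD sites, and its WC-alone sites had values from 5.36 to 9.10. The one from 66500001 on chromosome 13 had 9 WC, 5 WCS, 2 chimera, 2 NeuroD2 and 0 MyoD sites. The one from 3100001 on chromosome 4 had 5 WC, 1 WCS, 1 chimera, 5 NeuroD2 and 1 MyoD sites, and each of its WC sites was WC-alone. No WC-alone site of these 4 windows had a value above 11.6. How uniquely reads can be placed in them was not tested.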

How the data were processed

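The build is mm9, and the tools named are BWA 0.7.5 and CASAVA 1.8.2, per the submitters' processing notes. The peak caller, control, filters and pooling of libraries were not given in the sources used here. A group's 2 libraries name the same deposited list, which gives start, end and 1 value per site. That value is the authors' deposited score, with no scale named. No file had columns of other samples.

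Sites were merged and classified with Python 3.11.15, numpy 2.4.6, pandas 2.3.3 and scipy 1.17.1, and drawn with matplotlib 3.10.9. Gaps are bases between edges, and coordinates are 1-based. With 1 list per group no test or p-value was computed, and the depth behind each site is unknown. Merging, gaps and overlaps were tested on simulated data. The regions, classes and settings were chosen with earlier results of these data known. The naming rule takes the 10 sites of highest value, the 3 widest, the 5 nearest to and the 5 least overlapping another list, the 3 fullest windows of 100 kb, and the chromosomes with most and fewest. Chromosome 18 is not named by it. The E-box and promoter results that were planned need an mm9 genome or annotation, and were not run, so no gene is placed and no sequence shown.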

Additional observations from a re-analysis of the deposited data

How the results depend on the processing

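The 7 values followed through 9 alternatives were the number of WC-alone regions (3795), their share of WC sites (14.0%), their median value (6.68) and width (277 bp), and the shares with another list within 1 kb (13.4%), on X (1.92%) and within 10 kb of another WC-alone region (8.59%). Of 62 recomputed values, 29 stayed within the 95% interval of the reported one or, for the number of regions, within 1.5 times of it, and 33 moved. With 50% of the shorter site required, there were 3850 regions and the share within 1 kb was 14.6%. With centres within 100 bases, there were 4494 regions, the share of WC sites was 16.6%, the width 283 bp, the share within 1 kb 26.9% and that within 10 kb 11.9%. With gaps of up to 500 bases joined, there were 3476 regions and these 3 shares were 12.9, 5.87 and 7.11%. With only the upper 50% of each list by value, there were 1852 regions, with a median value of 14.1, a width of 367 bp and shares of 9.07% within 1 kb and 5.24% within 10 kb. With WC values of 10 or more, there were 744 regions, 5.12% of WC sites, with a median of 13.3, a width of 355 bp, 11.2% within 1 kb, 2.42% on X and 1.88% within 10 kb. With each list at the length of the shortest, there were 1521 regions, 10.6% of WC sites, with a median of 13.0, a width of 359 bp, 9.73% within 1 kb and 3.62% within 10 kb. With the WC list at the length of the WCS list, there were 2274 regions, 10.1% of WC sites, with a median of 8.27, a width of 310 bp and 5.94% within 10 kb. Without windows of 10 or more sites, the share of WC sites was 14.7% and that within 1 kb 11.8%. The 4 alternatives that drop low sites raise the median value by construction. Where every list is cut, sites of the other lists go too, so WC sites shared in the full lists can become WC-alone. Under the rules of 50% shared and of centres within 100 bases, sites that overlap another list can be WC-alone. Such sites count as within 1 kb of another list, so that share rises by construction. Joining gaps of up to 500 bases removes the regions that close to another list, so there the share falls by construction. The cause of the other shifts was not tested. Restriction to autosomes and common widths moved none of its 6 values, and a share on X cannot be had there. No paired analysis was possible because each group has 1 list and no test was made, and no library could be left out for the same reason. Unknown depth limits what absence from a list means: a site missing from a list may lie below its threshold.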

Other observations

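The authors' values repeat heavily. The 27045 WC sites take 1352 distinct values, and 83.7% of the sites have a value given to at least 20 sites of the list. WC-alone sites take 246 distinct values, and 98.6% of them have such a repeated value, against 81.2% of the other WC sites. WC-alone sites are also fewer and lower in value, and repetition was not compared at similar values. The commonest value among WC-alone sites was 5.58 (5.575 in the list), shared by 164 of them and by 495 WC sites in all. The lowest value, 5.04, was given to 149 WC-alone sites. The same repetition was present in the other lists, with 1157 distinct values in 22462 WCS sites, 1187 in 14375 chimera sites, 1424 in 31458 NeuroD2 sites and 1439 in 24935 MyoD sites. Ranks among sites of low value therefore contain many ties, which were broken by width.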
